A study of Mus musculus with 6 samples.

Results

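Open chromatin near the genes of netrins and netrin receptors was compared between 2 tissues of mouse embryos, the posterior second heart field (pSHF) and the atria (HT). The 10 genes, of 21883 protein-coding genes, were 4 of ligands (*Ntn1*, *Ntn4*, *Ntng1* and *Ntng2*) and 6 of receptors (*Unc5a*, *Unc5b*, *Unc5c*, *Unc5d*, *Dcc* and *Neo1*). A peak belonged to a gene if that gene's body was the nearest protein-coding gene body to the peak's summit, within 100 kb. This gave 69 of the 44018 peaks in the pSHF list and 51 of the 49267 peaks in the HT list. The pSHF holds progenitors behind the heart tube that feed its venous pole, and the atria are differentiated chambers to which they contribute. Both tissues were wild-type (WT) CD1, an outbred strain, at embryonic day 10. In each tissue, cells of pooled embryos were dissociated and opened to Tn5, the transposase that ATAC-seq uses to cut and tag accessible DNA. Each tissue had 3 samples and 1 deposited peak list, so there is no value per sample, no test between tissues and no measure of the spread between replicates. A dissected piece is a mixture, so a site open in fewer cells and a site less open in each cell cannot be told apart.

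Netrins are laminin-related proteins that steer migrating cells and growing axons. The secreted netrin encoded by *Ntn1* attracts through DCC and its relative neogenin, the product of *Neo1*, and repels through receptors of the UNC5 family, alone or together with DCC. The product of *Ntn4* is a secreted netrin that binds laminin in basement membranes, and the netrin-Gs are anchored to the membrane and bind other partners than DCC or UNC5. UNC5 receptors and DCC have also been described as dependence receptors, which can trigger cell death when no ligand is bound, and *Unc5b* is known as a receptor of vascular endothelium.

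The promoters of 3 members show the range of states found. Each line is a RefSeq window of 250 bases before to 50 bases after an annotated transcription start, on build GRCm38.p6, which numbers its chromosomes' bases as mm10 does. Capitals mark bases that lie in a peak of the pSHF list. The *Unc5a* window, at chr13:54949161-54949460 on the plus strand, held pSHF peaks over 149 of its 300 bases and no HT peak. The *Unc5c* window, at chr3:141465314-141465613 on the plus strand, lay wholly inside a peak in both lists. The *Ntng2* window, at chr2:29248050-29248349 on the minus strand, held no peak of either list.
Unc5a: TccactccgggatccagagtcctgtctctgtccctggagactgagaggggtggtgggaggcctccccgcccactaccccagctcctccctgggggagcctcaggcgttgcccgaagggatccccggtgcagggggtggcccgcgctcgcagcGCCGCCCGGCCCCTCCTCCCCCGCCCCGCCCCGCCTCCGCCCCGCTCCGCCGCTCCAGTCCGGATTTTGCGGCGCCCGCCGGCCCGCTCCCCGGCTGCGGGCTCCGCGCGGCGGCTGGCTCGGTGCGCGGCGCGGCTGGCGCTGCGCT
Unc5c: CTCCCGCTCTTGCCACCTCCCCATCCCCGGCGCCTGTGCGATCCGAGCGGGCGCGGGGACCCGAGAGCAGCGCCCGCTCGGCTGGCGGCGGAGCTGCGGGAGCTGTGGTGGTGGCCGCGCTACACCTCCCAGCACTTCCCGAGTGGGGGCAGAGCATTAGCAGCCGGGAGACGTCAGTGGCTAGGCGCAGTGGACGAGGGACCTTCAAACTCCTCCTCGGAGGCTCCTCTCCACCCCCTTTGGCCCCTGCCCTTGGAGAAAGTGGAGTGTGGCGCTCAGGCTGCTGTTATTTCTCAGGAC
Ntng2: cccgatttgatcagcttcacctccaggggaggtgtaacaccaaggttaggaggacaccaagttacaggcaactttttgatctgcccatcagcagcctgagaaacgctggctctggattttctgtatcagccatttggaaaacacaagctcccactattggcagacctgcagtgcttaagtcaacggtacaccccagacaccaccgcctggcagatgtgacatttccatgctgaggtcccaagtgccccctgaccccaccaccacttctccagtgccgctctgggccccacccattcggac

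Peaks that overlapped between the lists, by 1 bp or more, were taken as shared, and the rest as restricted to their list. A restricted site passed the authors' threshold in 1 tissue and missed it in the other, which does not show it to be closed there. Of the family's 69 pSHF peaks, 41 (59.4%, exact Clopper-Pearson 95% interval 46.9 to 71.1) were restricted, against 34.4% of all pSHF peaks. Of its 51 HT peaks, 26 (51.0%, 36.6 to 65.2) were restricted, against 45.5% of all HT peaks. Intervals of shares and of reads, here and below, cover counting error only. Together 61.2% of its 67 restricted peaks (48.5 to 72.9) were pSHF-restricted, against 39.3% over all genes. The family was chosen by a measured value, the number of restricted peaks near its genes in these lists, so these shares describe it and support nothing further.

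In raw numbers, the surplus of pSHF-restricted peaks lay at few genes. More restricted peaks were found in the pSHF at *Unc5c*, *Ntn1*, *Unc5a* and *Neo1*, more in HT at *Ntng2*, *Ntn4*, *Unc5d* and *Dcc*, and equal numbers at *Ntng1* and *Unc5b*. Thus 4 of 10 members were ahead in the pSHF, where 29.5% of all genes with a restricted peak were, and 4 were ahead in HT, where 57.8% were. The median difference over the members was 0, against -1 over all 10947 genes with a restricted peak. Restricted peaks numbered 15 in the pSHF and 13 in HT at the ligand genes, and 26 and 13 at the receptor genes. The pSHF share was 53.6% (33.9 to 72.5) at the ligands and 66.7% (49.8 to 80.9) at the receptors, against 39.3% over all genes. *Unc5c* alone supplied 13 of the 26. Without it, a choice made after seeing the counts, the receptors had 13 and 10, a pSHF share of 56.5% (34.5 to 76.8). The whole family without it had a share of 54.9% (40.3 to 68.9).

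**Figure D1:**
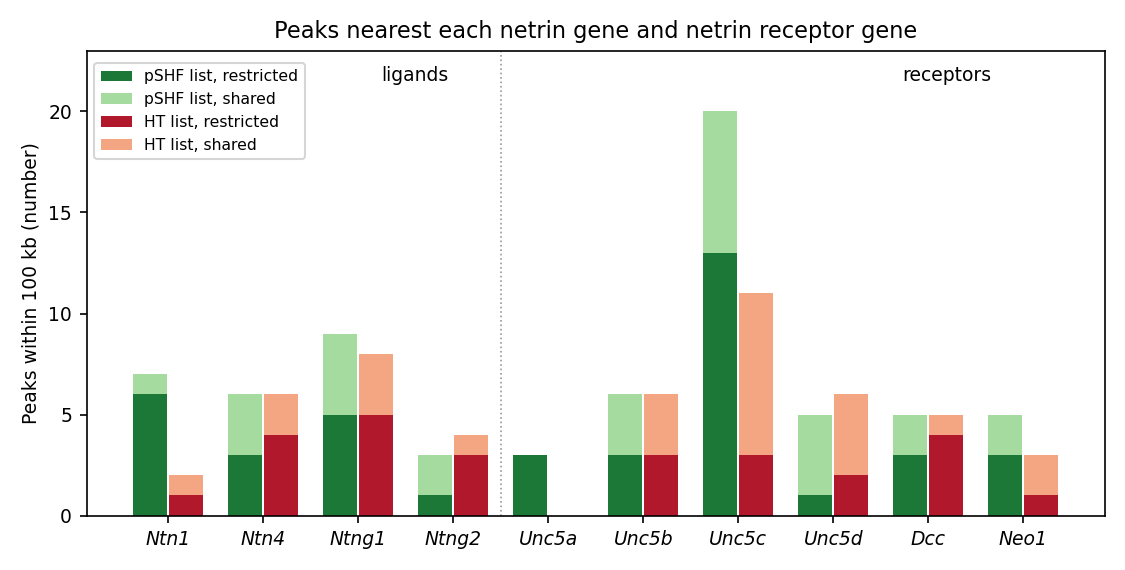
Number of peaks nearest each gene within 100 kb, pSHF list (green, left) and HT list (red, right), with restricted peaks dark and shared peaks light. *Unc5c* has 20 pSHF peaks and 11 HT peaks, and *Unc5a* has 3 pSHF peaks and no HT peak.

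Each peak is described by values of the authors' peak caller: the fold enrichment of its summit over background, and the -log10 q, the q-value on a negative log scale. The number of reads over the summit was recovered from the fold enrichment and the -log10 p of the same line. The smallest called summit had 5 reads in both lists, so a site with fewer reads in 1 tissue appears as restricted to the other. The background was 0.857 reads per position in the pSHF list and 0.824 in the HT list, and the median peak had 11 and 12 reads.

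Among the secreted netrins, *Ntn1* had more of its peaks in the pSHF list than in the HT list. It is a gene of 177 kb (chr11:68209364-68386826) and had 7 pSHF peaks, 6 of them restricted, and 2 HT peaks, 1 of them restricted. Its strongest pSHF peak, at chr11:68285829-68286489 inside the gene, had a fold enrichment of 6.11 on 15 reads (exact 95% Poisson interval 8.40 to 24.7) and lay 70274 bp from any HT peak. Restricted pSHF peaks also flanked the higher-coordinate end of the gene, with 11 reads at chr11:68385292-68385529, inside, and 8 reads at chr11:68387030-68387260, 350 bp outside. A pair of restricted pSHF peaks with 10 and 9 reads lay 13349 and 13747 bp beyond that end. Between these sites lay the strongest HT peak of the gene, which was also restricted: chr11:68390845-68391231, 4189 bp beyond the end, with a fold enrichment of 6.84 on 19 reads (11.4 to 29.7). The HT list thus had no peak within 1 kb of that gene end but did have 1 peak just outside it. The peak found in both lists was weak, with 10 pSHF reads and 11 HT reads, and lay 5853 bp inside the lower-coordinate end, with *Stx8* as the next gene 8069 bp away. With both lists limited to a -log10 q of 5 or more, *Ntn1* had 1 restricted peak on each side.

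*Ntn4*, a gene of 105 kb on chromosome 10, was open at its start in both tissues and carried its strongest sites in HT. It had 6 pSHF peaks, 3 of them restricted, and 6 HT peaks, 4 of them restricted. Its strongest peak in the HT list, chr10:93647825-93648367, lay 7142 bp downstream of the start and had a fold enrichment of 9.42 on 18 reads (10.7 to 28.4), the highest fold enrichment among the family's HT-restricted peaks. The other HT-restricted peaks lay 25363, 38784 and 95343 bp downstream with 9, 6 and 7 reads. The strongest pSHF peak, chr10:93636051-93636264, was restricted and lay 4897 bp upstream of the start, with a fold enrichment of 5.39 on 9 reads (4.12 to 17.1). All restricted pSHF peaks of *Ntn4* had 8 or 9 reads, and none reached a -log10 q of 5.

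*Ntng1*, which encodes a membrane-anchored netrin-G, had equal numbers of restricted peaks in both lists. The gene spans 370 kb (chr3:109780050-110149972) and had 9 pSHF peaks and 8 HT peaks, with 5 restricted in each list. In the pSHF list 4 of the 5 lay deep inside the gene. They included the broad peak chr3:110022629-110023463, 835 bp wide with 3 summits, 22 reads at its tallest summit (13.8 to 33.3), a fold enrichment of 7.65 and -log10 q at 13.1. No HT peak lay within 90094 bp of it, and no pSHF-restricted summit of the family had more reads. In the HT list 3 of the 5 lay outside the lower-coordinate end, 7741, 12899 and 14638 bp away, with 9, 13 and 13 reads. The strongest of these was chr3:109765296-109765504, with a fold enrichment of 5.80, and the other 2 lay 626 and 1052 bp downstream of the annotated start. The strongest HT peak, chr3:109782238-109782899, had a fold enrichment of 8.67 on 17 reads and was shared with the pSHF, where the site was split into 2 peaks with 10 and 9 reads. On this minus-strand gene the lower-coordinate end is downstream of the annotated start, whose own peaks were shared: 21 pSHF reads against 13 HT reads.

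*Ntng2*, the gene of the other netrin-G, had few peaks, and most of the restricted ones were in HT. It had 1 restricted pSHF peak and 3 restricted HT peaks. The strongest HT peak, chr2:29277797-29278177, was restricted and lay 29972 bp upstream of the start, with a fold enrichment of 7.48 on 14 reads (7.65 to 23.5). The restricted pSHF peak, chr2:29252418-29252624, also had 14 reads (7.65 to 23.5) but a fold enrichment of 3.83, and the recovered local background there, 2.91 reads, was higher than at the HT site. A restricted HT peak of 10 reads lay 1057 bp from it. The strongest pSHF peak, chr2:29194629-29194771, was a shared one at the far end of the gene, with a fold enrichment of 5.05 on 14 reads.

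**Figure D2:**
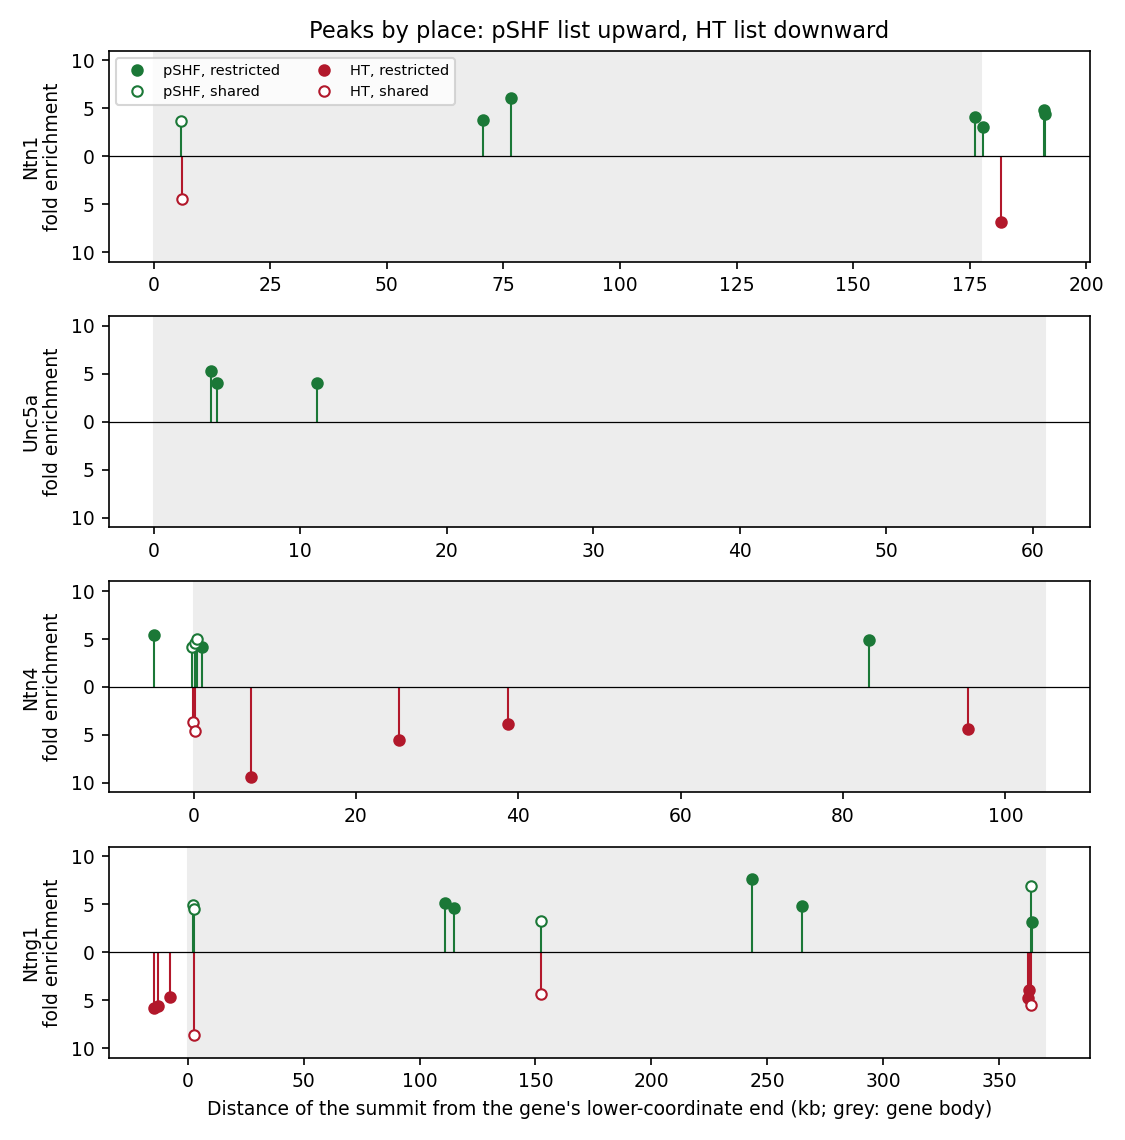
Fold enrichment of each peak (pSHF list upward, HT list downward) by the distance of its summit from the gene's lower-coordinate end in kb, for *Ntn1*, *Unc5a*, *Ntn4* and *Ntng1*. Filled points are restricted and open points shared, and *Ntng1* has 3 restricted HT peaks left of the gene and 4 restricted pSHF peaks deep inside it.

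*Unc5c*, a repulsive netrin receptor gene of 369 kb (chr3:141465564-141834924), had the largest number of peaks in the family. Its 20 pSHF peaks included 13 restricted ones (65.0%, 40.8 to 84.6), and its 11 HT peaks included 3 (27.3%, 6.02 to 61.0). Restricted pSHF peaks were spread along the gene: 12 lay inside it, with summits between 10639 and 354079 bp from the start, and 1 lay 45815 bp upstream. The median gap between neighbours was 29404 bp. By the difference of 10 the gene ranked 5 of 10947, behind *Lrmda*, *Asic2*, *Gas1* and *Pappa*, of which *Lrmda* and *Asic2* are longer (1037 and 1088 kb) and *Gas1* and *Pappa* shorter (3.13 and 233 kb).

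These restricted sites at *Unc5c* were shallow, as were pSHF-restricted peaks near genes in general, with median summits of 7 and 8 reads. Fewer than 10 reads lay at 11 of the 13, and at 8134 of all 12836. Of the 13, 5 had at most 6 reads at the summit and 10 had at most 8, where the smallest called summit had 5. The strongest, chr3:141733893-141734227, had a fold enrichment of 6.46 on 11 reads (5.49 to 19.7) and lay 63611 bp from the nearest HT peak. The next, chr3:141476119-141476342, had 5.56 on 14 reads (7.65 to 23.5) and lay 302 bp from an HT peak. With both lists limited to a -log10 q of 5 or more *Unc5c* had 3 pSHF-restricted and 0 HT-restricted peaks. Of the 13, 2 passed this cutoff. The shared pSHF peak chr3:141797729-141798166 also counted, since its HT partner, with a -log10 q of 2.26, fell below the cutoff. With at least 10 reads required at the summit, a cutoff chosen after seeing the data, *Unc5c* had 2 and 0. The 3 restricted HT peaks had 5, 6 and 7 reads, the strongest being chr3:141831282-141831443 with a fold enrichment of 4.39, 5769 bp from the neighbouring gene *Bmpr1b*. The peak of 6 reads lay 290 bp from a restricted pSHF peak of 8 reads, and 1 restricted pSHF peak lay 21 bp from an HT peak. Whether such close neighbours belong to 1 open site was not tested.

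The start of *Unc5c* was open in both tissues and stood out in both lists. The pSHF peak there, chr3:141464787-141465756, had a fold enrichment of 7.62 on 40 reads (28.6 to 54.5) and was the gene's strongest in that list. HT peaks at the start had 32 and 42 reads, with the larger, chr3:141465112-141465820, at a fold enrichment of 8.14. The strongest HT peak was a shared one 11220 bp downstream, chr3:141476644-141476943, with a fold enrichment of 10.5 on 23 reads, against 7.04 on 18 reads in the pSHF list. Of the gene's 7 pairs of shared peaks, the 4 nearest the start were higher in HT, as were most shared sites in these lists. The 3 farther along the gene were higher in the pSHF. This grouping by place was made after seeing the values. Over all pairs of shared peaks, 23.9% were higher in the pSHF. At the 3 shared sites between 11276 and 32965 bp from the start the fold enrichments were 7.04, 3.71 and 5.56 in the pSHF, against 10.5, 4.93 and 8.12 in HT. At the 2 sites 332360 and 345950 bp from the start they were 6.64 and 5.39 in the pSHF, against 3.84 and 4.39 in HT. The ratio of pSHF over HT lay above 22.8%, 37.6% and 25.3% of all pairs at the 3 sites. At the 2 sites it lay above 99.2% and 91.2%. At the start, with 7.62 in the pSHF against 8.14 in HT, it lay above 68.5%. At chr3:141549621-141550201, 84.3 kb from the start, it lay above 82.7%, with 5.30 in the pSHF against 4.93 in HT. Apart from the start, these sites had 6 to 23 reads. The read intervals overlapped at each of these sites, as at chr3:141797729-141798166 with 13 pSHF reads (6.92 to 22.2) and 6 HT reads (2.20 to 13.1).

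**Figure D3:**
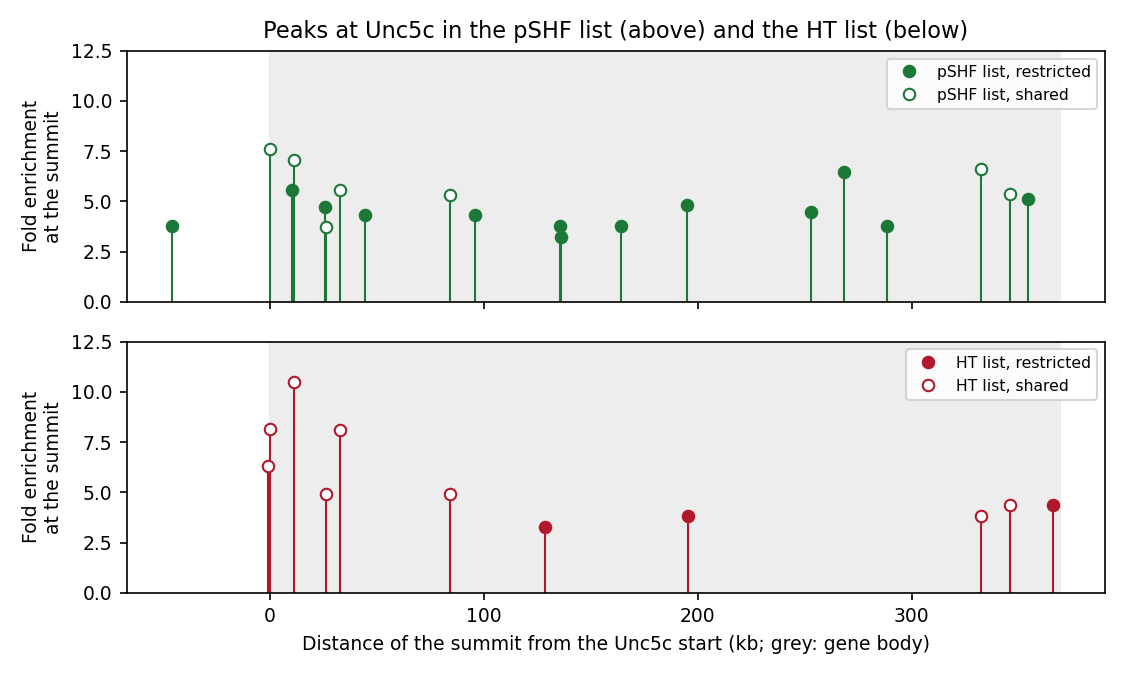
Fold enrichment of each *Unc5c* peak by the distance of its summit from the gene start in kb, pSHF list above and HT list below, with restricted peaks filled, shared peaks open and the gene body in grey. Filled pSHF points lie along the whole gene at 3.23 to 6.46, and the highest HT point, at 10.5, is shared.

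*Unc5a*, the smallest of the UNC5 receptor genes here at 60.9 kb, was the member with peaks in the pSHF list alone, a state found at 5.19% of all genes with a peak. The reverse, peaks in the HT list alone, was found at 7.35% and at no member. *Unc5a* had 3 pSHF peaks. A peak upstream of the annotated start, chr13:54949002-54949161, had a fold enrichment of 5.30 on 15 reads (8.40 to 24.7). A peak that spans the start, chr13:54949313-54949559, had 3.98 on 11 reads (5.49 to 19.7). The last lay 6895 bp downstream with 9 reads. The nearest HT peak of any kind was 143433 bp away from this last one. The first peak had a -log10 q of 6.45 and was the 1 that passed 5.

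*Unc5b* was balanced, with 3 restricted peaks in each list among 6 and 6. Its start was open in both tissues and stronger in HT, where the peak chr10:60831342-60831742 had a fold enrichment of 8.61 on 30 reads (20.2 to 42.8), against 5.02 on 21 reads (13.0 to 32.1) in the pSHF list. That start peak was the gene's strongest in HT. The strongest in the pSHF list, chr10:60760460-60760772, lay 1923 bp outside the far end of the gene and had 17 reads in both tissues, with fold enrichments of 6.47 in the pSHF and 6.48 in HT. The strongest restricted peaks of the gene lay 906 bp from each other: chr10:60779716-60779958 in the pSHF, with a fold enrichment of 5.32 on 14 reads, and chr10:60778678-60778810 in HT, with 4.56 on 11 reads. The other restricted HT peaks, with 15 reads each, lay 15493 and 14504 bp downstream of the start.

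*Unc5d*, at 573 kb, was open mainly at 1 end in both tissues. The peak chr8:29219300-29220018 of the pSHF list had a fold enrichment of 9.59 on 32 reads (21.9 to 45.2), and its partner chr8:29219220-29219926 in HT had 11.3 on 31 reads (21.1 to 44.0). These were the highest fold enrichments of the family in both lists. The gene had 1 restricted pSHF peak (chr8:28594740-28594857, 7 reads) and 2 restricted HT peaks, the stronger by fold enrichment being chr8:28760622-28760771 with 4.93 on 8 reads. The other restricted HT peak had 13 reads and lay 409 bp from the large shared pSHF peak. At 2 shared sites 67135 and 45798 bp outside the other end, fold enrichment was 3.77 in the pSHF at both, against 8.22 and 6.03 in HT, on 6 pSHF reads each against 14 and 10 HT reads.

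*Dcc*, which encodes the attractive netrin receptor, was sparsely covered for its 1098 kb (chr18:71253613-72351228). It had 5 peaks in each list, 3 restricted in the pSHF and 4 in HT, and the only shared site was at the higher-coordinate end. The strongest pSHF peak, chr18:72196744-72196932, was restricted, with a fold enrichment of 8.08 on 14 reads (7.65 to 23.5), the highest fold enrichment among the family's pSHF-restricted peaks. The restricted HT peaks had 6 to 9 reads, and the strongest was chr18:71486559-71486752 with a fold enrichment of 5.48. At the shared end the pSHF list had peaks with 14 and 15 reads, and HT had 1 peak with 11, its strongest, at chr18:72351015-72351276 with a fold enrichment of 5.74. The direction of the *Dcc* count depended on the settings: the difference was -1 as counted, 3 at or above each list's median fold enrichment and 2 with peaks up to 500 kb away.

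*Neo1*, the gene of the DCC relative neogenin, had 3 restricted pSHF peaks and 1 restricted HT peak. Its start was open in both, at chr9:59036016-59036920 in the pSHF with a fold enrichment of 5.46 on 22 reads and at chr9:59036189-59036926 in HT with 6.62 on 23 reads. These were the gene's strongest peaks. Of the restricted pSHF peaks, those with 11 and 16 reads flanked this start peak, 535 and 76 bp from the HT peak. The strongest by fold enrichment, chr9:58874179-58874312, with 5.39 on 9 reads, lay 439 bp outside the other end, 11065 bp from *Hcn4*. The restricted HT peak, chr9:59062371-59062676, lay 25975 bp outside the start end of the gene with a fold enrichment of 6.55 on 13 reads. Its -log10 q was 7.88, and with both lists limited to 5 or more *Neo1* had 0 pSHF-restricted peaks and this 1 in HT.

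Restricted peaks of the family lay mostly inside the gene bodies. Place was measured from the outermost ends of the gene body, not from the annotated start. A peak counted as inside can therefore be a promoter peak. For the family, the ends were those of the member itself. In the shares over all peaks or genes, they were the nearest ends of any protein-coding gene, so the definitions differ slightly. Among the pSHF-restricted peaks inside, some at *Unc5a*, *Ntng1* and *Neo1* lay within 1 kb of the annotated start. The same held for an HT-restricted peak at *Ntng1*. Of the 41 pSHF-restricted peaks 30 (73.2%) lay inside the gene, 8 outside and 3 within 1 kb of a gene end, and of the 26 HT-restricted peaks 17 (65.4%) lay inside, 8 outside and 1 at an end. Over all protein-coding genes, 51.8% of restricted peaks in the pSHF and 56.1% in HT lay inside a gene. Shared peaks of the family also lay inside more often, 46.4% (pSHF) and 48.0% (HT), against 29.8% and 30.4% over all genes. *Unc5c* gave 12 of the 30. Without it, a choice made after seeing the counts, the restricted shares inside were 64.3% and 60.9%. The members span 53.4 to 1098 kb, and other genes were not matched to them in length. Away from gene ends, 38 of 55 pSHF peaks (69.1%, 55.2 to 80.9) and 25 of 41 HT peaks (61.0%, 44.5 to 75.8) were restricted, against 44.6% and 57.6% of all such peaks. At gene ends, 3 of 14 pSHF peaks and 1 of 10 HT peaks were restricted, against 11.3% and 13.9%. The ligands had 4 of 15 restricted pSHF peaks (26.7%) and 6 of 13 restricted HT peaks (46.2%) outside the gene. The receptors had 4 of 26 and 2 of 13 (15.4% in both lists). Over all protein-coding genes, 34.6% of restricted peaks in the pSHF and 33.7% in HT lay outside. No peak outside a gene was farther than 73068 bp from it in the pSHF list (*Unc5b*, 7 reads) or 67347 bp in the HT list (*Unc5d*, 14 reads). The nearest peaks beyond the limit lay 105588 bp from *Unc5b* in the pSHF list (13 reads) and 218815 bp from *Unc5d* in the HT list (11 reads).

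In strength the family's restricted peaks had medians near those of restricted peaks in general. Fold enrichment ran from 2.89 to 8.08 in the pSHF, where the median over all restricted peaks near genes was 4.30, and the family median was 4.40. In HT it was 4.59 (3.29 to 9.42), against 4.81. Fewer than 10 reads lay at 28 of the 41 pSHF-restricted summits and at 14 of the 26 HT-restricted ones. Over all protein-coding genes this held for 8134 of 12836 pSHF-restricted and 9936 of 19843 HT-restricted summits. A -log10 q of at least 5 was reached by 7 of the 41 (17.1%) and by 9 of the 26 (34.6%), against 15.9% of all restricted peaks in the pSHF and 40.9% in HT. The ligand genes had 2 such peaks in the pSHF and 6 in HT, and the receptor genes had 5 and 3. When this cutoff was set on both lists before peaks were matched, the family had 9 pSHF-restricted and 13 HT-restricted peaks, in place of 41 and 26. The pSHF share of restricted peaks was then 40.9% in the family, against 22.2% over all genes. With restricted peaks limited instead to the upper part of each list by fold enrichment, from its median up, the numbers were 17 in the pSHF and 6 in HT, a pSHF share of 73.9% against 37.6% over all genes. Under the first of these cutoffs a peak whose partner falls below it counts as restricted.

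**Figure D4:**
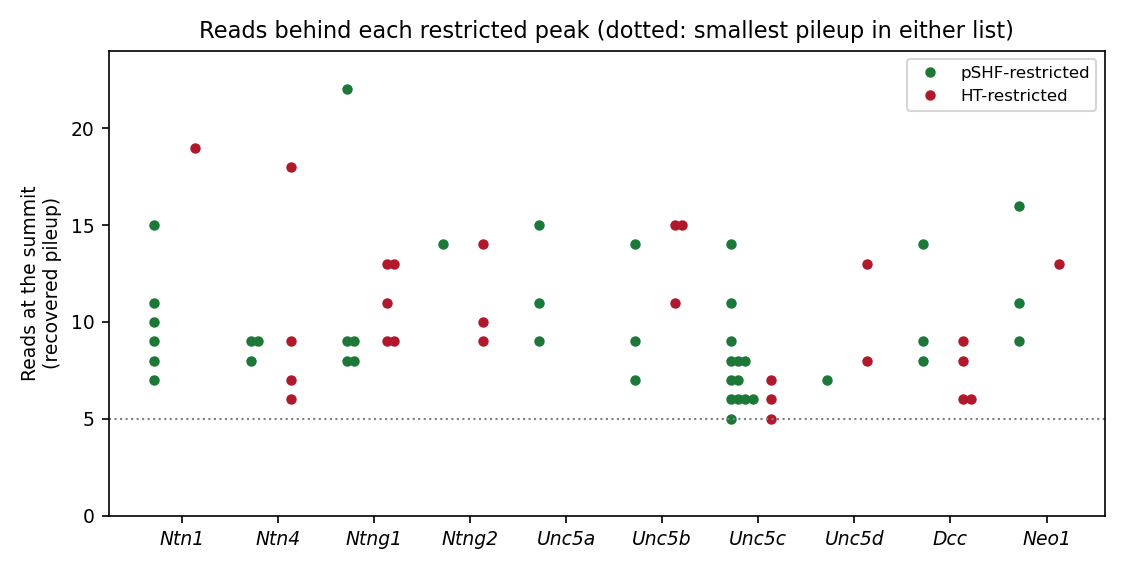
Reads at the summit of each restricted peak by gene, pSHF-restricted (green, left) and HT-restricted (red, right), with the smallest called summit of 5 reads dotted. Most *Unc5c* points lie at 5 to 9 reads, and the highest points are 22 reads at *Ntng1* in the pSHF and 19 at *Ntn1* in HT.

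Sites open in both tissues were compared as pairs of peaks that were each other's largest overlap. Fold enrichment was higher in the pSHF in 6 of the family's 24 pairs (25.0%), against 23.9% of all 26119 pairs. The median log2 ratio of pSHF over HT was -0.26 (exact 95% interval of the median -0.55 to -0.0016), beside -0.29 over all pairs. This interval covers the spread between pairs at chosen genes, not counting error, and is no test between tissues. The ligand pairs had a median of -0.22 (7 pairs) and the receptor pairs -0.28 (17 pairs). The pair leaning most to the pSHF was at *Unc5c* (chr3:141797729-141798166, log2 ratio 0.79, above 99.2% of all pairs), and the pair leaning most to HT was at *Unc5d* (chr8:28579516-28579633, log2 ratio -1.13, above 3.21% of all pairs). Both extremes rest on few reads, 13 in the pSHF against 6 in HT at the first and 6 against 14 at the second.

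**Figure D5:**
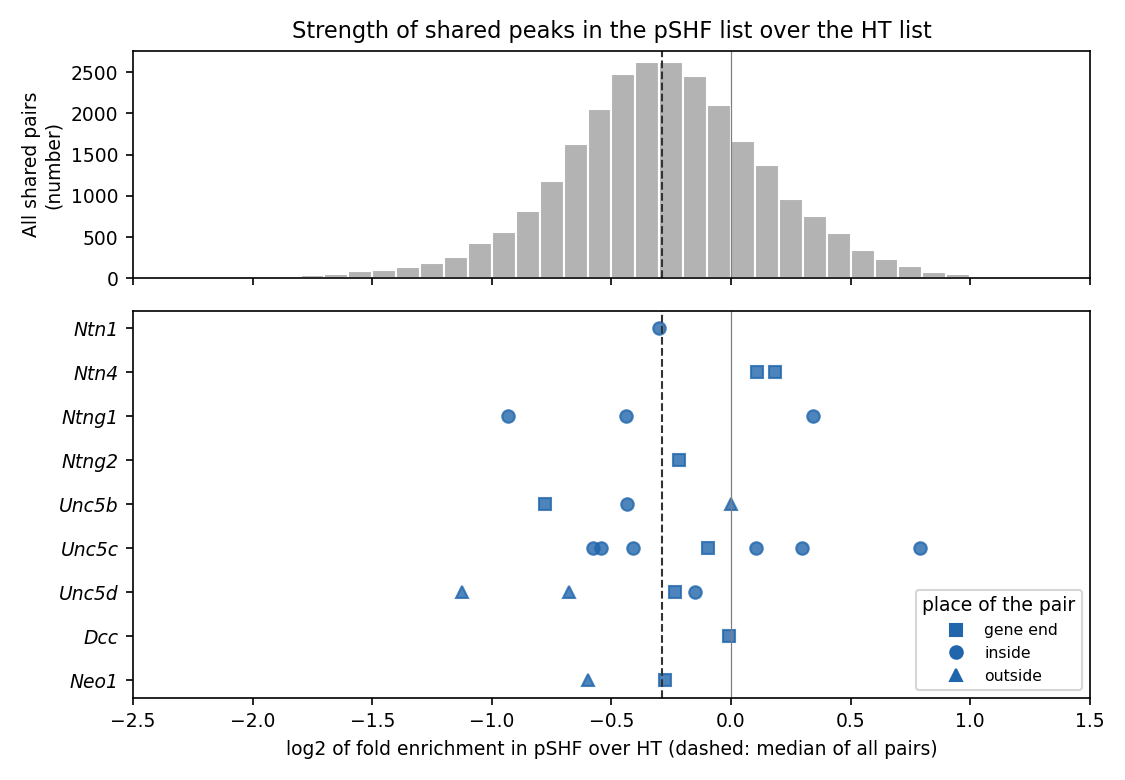
Log2 ratio of fold enrichment in the pSHF list over the HT list, for all 26119 shared pairs (histogram, above) and for the family's 24 pairs by gene (points, below), with the median of all pairs dashed. The family's points spread on both sides of the dashed line at -0.29, and *Unc5c* has points on both sides.

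Promoter windows were at hand for 7 of the 10 members. A pSHF peak lay in 6 of the 7, against 54.8% of all windows, and an HT peak in 5 of the 7, against 55.6%. Both lists had a peak in the windows of *Ntn4*, *Ntng1*, *Unc5b*, *Unc5c* and *Neo1*. The pSHF list alone had one at *Unc5a*, a state found in 2.41% of all 21044 windows of protein-coding genes. Neither list had a peak in the window of *Ntng2*, as in 42.0% of all windows. The printed *Ntng2* window held 6 CpG dinucleotides and was 55.0% G or C, the *Unc5c* window held 24 and was 68.3% G or C, and the *Unc5a* window held 37 and was 78.3% G or C. The median window held 13. In the *Unc5a* sequence the stretch in capitals covers the annotated start, and the part before it, in lower case, separates it from the stronger upstream pSHF peak, which touches the window at its first base. Short words that transcription factors bind were searched on both strands, and none was found in the 7 windows. Among all windows, the GLI word GACCACCCA occurred in 0.181%. The forkhead word TGTTTAC occurred in 3.03% of them. For the GATA factors the word was AGATAA, present in 9.68% of windows, and for T-box factors it was AGGTGTGA, present in 1.16%. No word is contained in another on either strand.

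Around genes that work with netrins and their receptors, more restricted peaks lay in HT than in the pSHF, as over all genes. Of 17 genes of other ligands, receptors and co-ligands, 4 had more pSHF-restricted and 8 more HT-restricted peaks, with 22 and 39 peaks in all. Of 14 genes that act with the receptors in or on the cell, 1 had more pSHF-restricted and 7 more HT-restricted peaks, with 23 and 46 in all. In each of these 2 groups 12 genes had a restricted peak at all, and over all such genes 29.5% were ahead in the pSHF and 57.8% in HT. The largest HT differences were at *Dscam*, which encodes a netrin-binding receptor of the immunoglobulin superfamily (3 pSHF-restricted and 13 HT-restricted peaks), at *Ablim1*, of an actin-binding protein (2 and 8), and at *Dapk1*, of a death-associated kinase (1 and 6), and *Trio*, of a guanine nucleotide exchange factor (7 and 12). The largest pSHF differences were small, at *Flrt2*, of an UNC5 ligand (3 and 1), and *Adgrl3*, of a latrophilin (6 and 4), followed by *Lrrc4c*, of a netrin-G ligand (1 and 0), *Itga6* (4 and 3) and *Trim9* (1 and 0). *Lrrc4*, of the other netrin-G ligand, and *Ntn5* had no peak in either list.

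Marker genes of the labelled tissues were counted as a description. The marker lists were chosen with earlier results of these data known, so they are no independent check. Over all genes, 39.3% of restricted peaks were pSHF-restricted, so equal counts lean to the pSHF against that share. Of all genes with a restricted peak, 29.5% were ahead in the pSHF and 57.8% in HT. All 7 atrial markers had more restricted peaks in HT, with 4 pSHF-restricted and 25 HT-restricted peaks in all, and *Nppa*, *Nkx2-5* and *Ttn* had no pSHF peak. Of 7 pSHF markers 5 had more in the pSHF and none more in HT, with 28 and 5 peaks in all, and *Isl1* and *Hoxb1* were equal. Most of the 28 lay at *Gas1* (11 and 0) and *Foxf1* (7 and 1). Per gene, pSHF markers had 1 to 11 restricted peaks in the pSHF and 0 to 2 in HT. Atrial markers had 0 to 4 and 1 to 6. Genes of other tissues that a piece could hold were counted too. Restricted peaks in the pSHF and in HT numbered 12 and 5 at somite markers (4 genes), 10 and 6 at endoderm markers (4 genes), 7 and 24 at endothelial markers (4 genes) and 12 and 12 at neural tube markers (5 genes). *Olig2* had no pSHF peak and *Uncx* no HT peak. Restricted peaks per gene ranged from 2 to 4 in the pSHF and 0 to 2 in HT for the somite list. For the endoderm list they ranged from 1 to 5 in the pSHF and 1 to 2 in HT. For the endothelial list the ranges were 1 to 3 in the pSHF and 3 to 10 in HT, and for the neural list 0 to 6 in the pSHF and 1 to 4 in HT. The part of such cells in the counts at the netrin and receptor genes was not tested.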

How the data were processed

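ATAC-seq peak lists of the pSHF and the atria (HT) were analysed, 1 list per tissue for 3 samples each, grouped by the sample titles. The submitters' processing notes name MACS2 2.1.1, Picard, SAMtools 1.5 and Bowtie2 2.3.2, with mm10 as the build. Neither parameters nor any pooling of samples before calling is given there. Each deposited line holds a score, a fold enrichment ratio, a −log10 p-value and a −log10 q-value per summit. These reach down to a −log10 q of 1.30 (pSHF) and 1.31 (HT).

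Lines with equal start and end (58887 in pSHF and 60223 in HT before merging) were taken as 1 peak with the summit of highest fold enrichment. Summits went to the nearest of 21883 protein-coding gene bodies of RefSeq GRCm38.p6. A whole read pileup that gave both fold enrichment, as (pileup + 1)/(background + 1), and the Poisson −log10 p within 0.01 was found for 100% of peaks. Overlap, assignment and pileup steps were tested on simulated data. Python 3.11.15, NumPy 2.4.6, pandas 2.3.3, SciPy 1.17.1 and matplotlib 3.10.9 were used.

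The members, lists and tests were chosen with earlier results of these data known. Named peaks are the strongest and the strongest restricted one of each gene in each list; named partner genes are those with the 3 largest differences each way, with ties. There were 9 alternative settings from the start and 2 more after seeing the data. Peak sequence outside the promoter windows was not analysed here, since no genome was used.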

Additional observations from a re-analysis of the deposited data

How the results depend on the processing

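No paired analysis was possible because each tissue has 1 peak list and no value per replicate, so leaving out a replicate could not be run either. The cutoff on peak strength moved the counts most. With a −log10 q of 5 or more required, the family had 9 pSHF-restricted and 13 HT-restricted peaks (40.9% of them pSHF-restricted, where all genes had 22.2%, against 61.2% and 39.3% as counted), the ligands 3 and 7 and the receptors 6 and 6, and the difference at *Neo1* was -1. At or above each list's median fold enrichment (4.85 in pSHF and 5.49 in HT) the family had 17 and 6 (73.9%, all genes 37.6%), the ligands 7 and 5 and the receptors 10 and 1, and the difference was 1 at *Ntn4* and 3 at *Dcc*. With at least 10 reads at the summit, chosen after seeing the data, the family had 13 and 12 (52.0%, all genes 32.2%), the ligands 5 and 7 and the receptors 8 and 5, and the difference at *Dcc* was 1. By nearest gene end the receptors had 7 HT-restricted peaks, within 500 kb the difference at *Dcc* was 2, and without *Unc5c*, also chosen after seeing the data, the receptors had 13 pSHF-restricted peaks. The causes were not tested. The pSHF stayed ahead at *Unc5c* (differences of 3 to 10) and *Unc5a* (1 to 4) under all 9 settings chosen at the start, and at *Ntn1* under 8, with 1 equal. The median log2 ratio of the shared pairs stayed within its interval under the 8 settings run. With 5 to 22 reads at restricted summits, depth limits every single site.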

Other observations

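Beyond the 100 kb limit, the sites of highest fold enrichment nearest a netrin receptor gene were in the desert beside *Dcc*. Past its higher-coordinate end the HT list had 3 peaks beyond the limit. The first, chr18:72807211-72807502, lay 456142 bp away with a fold enrichment of 12.7 on 23 reads (14.6 to 34.5). The next, chr18:72890333-72890630, lay 539238 bp away and was restricted to HT, with 14.3 on 25 reads (16.2 to 36.9). The last, chr18:72915079-72915427, lay 564060 bp away with 11.5 on 23 reads. In fold enrichment, though not in reads, all 3 exceeded every HT peak within 100 kb of a member. The pSHF partners of the first and the last had fold enrichments of 4.31 and 5.39 on 7 reads (2.81 to 14.4) and 9 reads (4.12 to 17.1), below both HT values. The pSHF list also had 4 restricted peaks of 5 to 8 reads in this desert, 260306 to 598087 bp from *Dcc*. The other gene flanking it, *Mex3c*, lay farther from each of these sites than *Dcc* did. These sites were singled out after their values were seen, and which gene they act on was not tested.

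Around *Unc5d*, 5 further HT peaks lay 218815 to 569711 bp from the gene, all restricted to HT with 7 to 11 reads, and 1 pSHF peak lay 346109 bp away with 7 reads.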
